A study of Mus musculus with 3 samples.

Results

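Displaced summits are places where both FOXF1 binding lists held a peak close by but put its highest point at different positions. They were the replicate 2 summits whose nearest replicate 1 summit lay over 100 bp and at most 1000 bp away. There were 8642 of them among 61172 replicate 2 summits on the nuclear chromosomes (14.1%, exact 95% interval 13.9 to 14.4%). Of the rest, 51013 (83.4%) had a replicate 1 summit within 100 bp and are called shared, and 1517 (2.48%) had none within 1000 bp. The members were chosen by the measured distance between the lists, so their number and their distances are a description. All intervals are exact (Clopper-Pearson) for shares and cover counting error only, and regions are not replicates of the lungs.

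ChIP-seq of FOXF1 was done on whole lung from wild-type C57BL/6 mice at embryonic day 18.5. The 2 biological replicates each pooled 3 lungs, were fixed in 1% formaldehyde and were cut with micrococcal nuclease before sonication, and 10 µg of chromatin was precipitated with 7 µg of a FOXF1 antibody from R&D Biosystems (AF4798, Lot#B1508). A 2% input of the same strain and age, with no antibody, served as the control and entered only through the authors' peak calls. Whole lung mixes endothelium, mesenchyme, epithelium and blood, and a pool hides the single animal, so neither the cell type nor the animal behind a summit can be told. The replicate 1 list held 107378 nuclear summits, against 61172 in replicate 2. The sources used here do not give the read depth.

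FOXF1 is a forkhead transcription factor of the lung mesenchyme and endothelium, needed for the vessels and septa of the developing lung. Forkhead proteins read short AT-rich DNA motifs, often in enhancers far from genes, and lung enhancers and promoters are both recovered in precipitated chromatin. A summit is the single base where a peak's signal is highest, so its place depends on how reads are spread over the region. At active promoters, nucleosomes sit on either side of an open stretch next to the start of transcription.

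The members fell into a pair of arrangements, and this goes in part against reading them all as displaced. In 5915 of 8642 (68.4%, 67.5 to 69.4%) the facing replicate 1 summit had no replicate 2 summit within 100 bp. These are called moved, and in 5582 of them (94.4%) the member and the facing summit were each other's nearest. For the remaining moved summits, another replicate 2 summit lay as near or nearer to the facing one. In the other 2727 (31.6%) the facing replicate 1 summit already had a replicate 2 summit within 100 bp, so the member was an additional replicate 2 summit beside a shared one. These are called added. A replicate 1 summit flanked the member on both sides, within 1000 bp each, for 833 moved (14.1%) and 251 added summits (9.20%).

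Many moved pairs lay at promoters, and 6 promoters with high-scoring pairs show what lies between the summits. Each window runs from 250 bases before to 50 bases after the start of transcription, in RefSeq sequence on GRCm38.p6, the assembly behind mm10, and is written on the strand of the gene. Capitals mark the bases from one summit to the other, and a window written all in capitals lies wholly between them. The windows are chr1:132007852-132008151 (plus strand) for Elk4, an ETS partner of serum response factor, chr4:133130383-133130682 (plus) for Wasf2, an actin regulator, chr3:94932833-94933132 (plus) for the selenium-binding protein gene Selenbp1, chr10:34281940-34282239 (plus) for Tspyl1, chr6:51469845-51470144 (minus) for the RNA-binding protein gene Hnrnpa2b1, and chr13:5861239-5861538 (plus) for Klf6, an early response zinc finger factor.
Elk4: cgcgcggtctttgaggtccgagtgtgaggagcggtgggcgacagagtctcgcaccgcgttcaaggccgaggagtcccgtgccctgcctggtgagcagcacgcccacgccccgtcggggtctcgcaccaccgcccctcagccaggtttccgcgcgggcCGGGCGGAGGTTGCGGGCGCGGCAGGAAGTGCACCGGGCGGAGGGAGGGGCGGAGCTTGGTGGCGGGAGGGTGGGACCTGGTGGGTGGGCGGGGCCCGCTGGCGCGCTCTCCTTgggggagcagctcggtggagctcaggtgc
Wasf2: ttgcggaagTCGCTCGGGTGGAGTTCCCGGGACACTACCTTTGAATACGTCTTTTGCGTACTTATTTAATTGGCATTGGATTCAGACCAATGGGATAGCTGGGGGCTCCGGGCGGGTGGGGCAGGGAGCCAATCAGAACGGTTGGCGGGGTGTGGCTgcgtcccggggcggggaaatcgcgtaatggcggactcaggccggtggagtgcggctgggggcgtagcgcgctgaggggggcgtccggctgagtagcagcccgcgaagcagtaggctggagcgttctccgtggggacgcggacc
Selenbp1: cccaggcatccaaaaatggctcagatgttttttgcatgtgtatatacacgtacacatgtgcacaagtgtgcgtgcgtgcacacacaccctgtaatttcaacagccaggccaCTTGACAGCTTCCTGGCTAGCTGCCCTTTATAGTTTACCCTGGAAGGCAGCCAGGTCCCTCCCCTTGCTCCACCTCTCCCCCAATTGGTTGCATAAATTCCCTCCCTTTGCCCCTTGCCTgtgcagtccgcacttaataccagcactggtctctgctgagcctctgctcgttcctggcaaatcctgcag
Tspyl1: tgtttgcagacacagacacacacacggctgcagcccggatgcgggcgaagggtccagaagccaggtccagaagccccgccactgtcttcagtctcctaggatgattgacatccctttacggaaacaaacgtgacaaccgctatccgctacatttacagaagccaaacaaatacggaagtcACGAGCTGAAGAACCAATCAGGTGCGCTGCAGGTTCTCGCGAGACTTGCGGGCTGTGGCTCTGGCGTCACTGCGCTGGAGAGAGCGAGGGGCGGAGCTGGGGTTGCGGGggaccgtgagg
Hnrnpa2b1: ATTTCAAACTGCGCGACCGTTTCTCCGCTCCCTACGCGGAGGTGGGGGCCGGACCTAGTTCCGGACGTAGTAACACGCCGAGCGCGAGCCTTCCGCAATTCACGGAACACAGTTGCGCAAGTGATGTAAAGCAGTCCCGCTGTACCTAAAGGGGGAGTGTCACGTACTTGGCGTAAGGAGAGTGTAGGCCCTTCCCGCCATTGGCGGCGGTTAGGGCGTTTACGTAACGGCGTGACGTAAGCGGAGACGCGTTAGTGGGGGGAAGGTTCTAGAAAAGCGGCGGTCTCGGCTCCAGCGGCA
Klf6: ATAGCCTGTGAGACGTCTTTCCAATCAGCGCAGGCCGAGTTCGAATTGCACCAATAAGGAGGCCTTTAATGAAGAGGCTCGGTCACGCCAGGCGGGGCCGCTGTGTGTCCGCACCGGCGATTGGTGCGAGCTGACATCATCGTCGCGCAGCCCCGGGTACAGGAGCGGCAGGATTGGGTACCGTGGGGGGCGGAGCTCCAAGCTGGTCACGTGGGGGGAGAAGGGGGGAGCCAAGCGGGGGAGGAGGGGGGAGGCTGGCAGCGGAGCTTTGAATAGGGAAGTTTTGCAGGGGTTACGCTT

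At Elk4 the summits bracketed the start of transcription. Positions are counted from the start, with negative ones before it. The replicate 2 summit lay at 20 bp (score 104.2) and the replicate 1 summit at -93 bp (score 133.6), 113 bp apart. At Tspyl1 they also bracketed it, at 38 bp in replicate 2 (79.9) and -70 bp in replicate 1 (119.1). The score, a −log10 significance set by the authors' caller, depends on depth and is read only within a list. Selenbp1 had its summits at -20 bp in replicate 2 (87.1) and -139 bp in replicate 1 (138.0). Wasf2 had them at -94 bp in replicate 2 (97.3) and -241 bp in replicate 1 (136.1), so at both genes neither summit passed the start. At Klf6 the replicate 2 summit lay at 95 bp (100.7) and the replicate 1 summit at -291 bp (108.6). At Hnrnpa2b1 they lay at 52 bp (101.1) and -530 bp (111.7). Of the 6 promoters, 4 thus had the replicate 2 summit after the start of transcription used and the replicate 1 summit before it. Klf6 and Hnrnpa2b1 were eligible only because their summits lay on either side of the whole window, so bracketing was fixed there. The Tspyl1 window alone of the 6 held a forkhead core, TGTTTGC, at its first bases, outside the stretch between the summits.

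Distances were mostly short, with a tail and a second, lower rise. The median displacement was 276 bp (quartiles 130 and 589). Moved summits lay a median of 146 bp from the facing summit (119 to 297), and added ones 642 bp (517 to 800). Counted in steps of 20 bp, they fell from 1569 in the step ending at 120 bp to 108 in the step ending at 220 bp, then rose to 163 in the step ending at 420 bp and came to 64 in the last. Below 100 bp the counts of shared summits were already falling, from 22398 at 0 to 10 bp to 906 at 91 to 100 bp, so the limit of 100 bp cuts through a slope. Members at most 200 bp away numbered 3876 (44.9% of all), and 99.9% of them were moved. Of the 2150 over 400 and up to 700 bp away, 31.9% were moved, and of the 1415 beyond 700 bp, 22.6%. Within one list summits were never closer than 135 bp in replicate 2 or 103 bp in replicate 1, which limits where an added summit can lie.

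**Figure D1:**
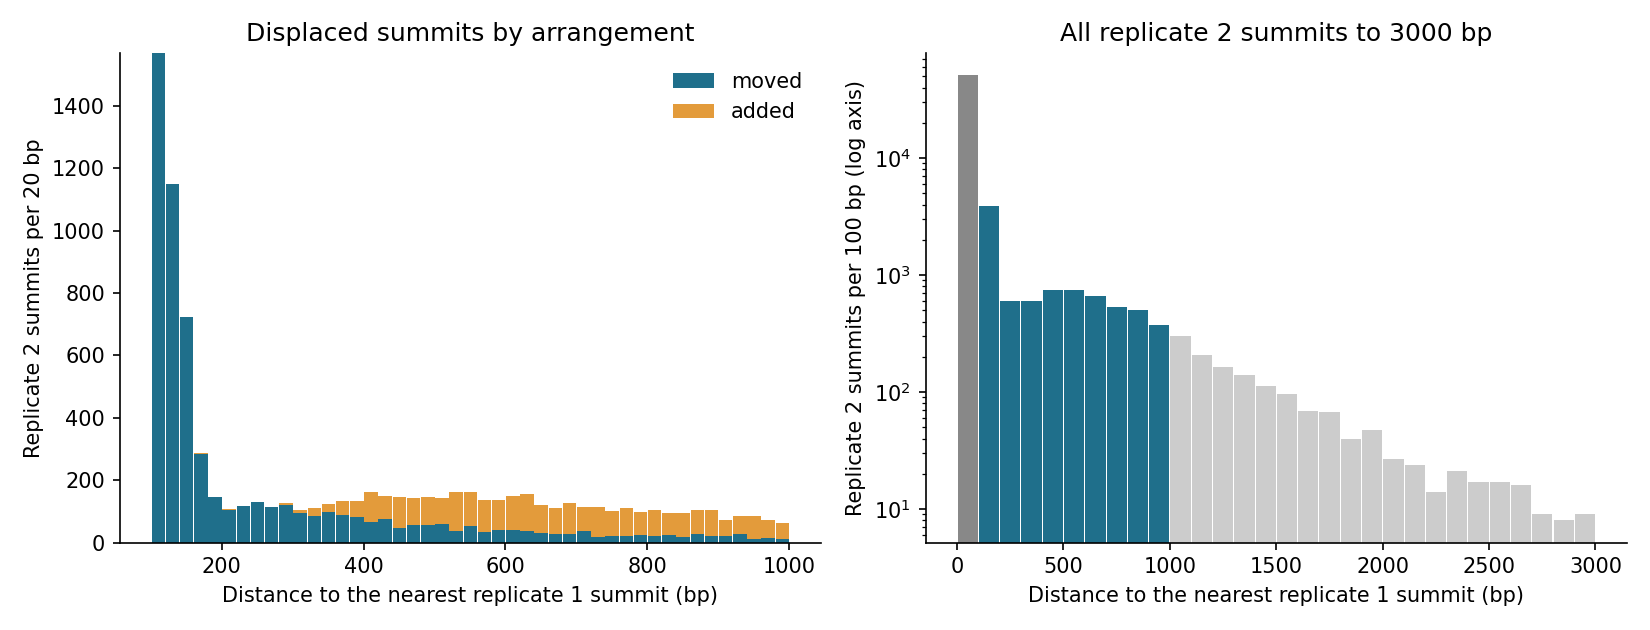
Number of replicate 2 summits by distance to the nearest replicate 1 summit, in bp. The left panel stacks moved and added members in steps of 20 bp, and the right panel counts all replicate 2 summits in steps of 100 bp on a log axis, with members in blue, shared summits in dark grey and more distant ones in light grey. Moved summits crowd at the short end, with 1569 at 120 bp or nearer, and added summits form the broad rise around a median of 642 bp.

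The values on either side of both limits were alike in kind. Just past 100 bp, 6 members had replicate 2 scores from 4.11 near Tmem26 to 63.4 near Plekhg1, and 6 shared summits at exactly 100 bp had scores from 8.96 in Tmem135 to 57.4 near Strn4. At the far limit, 6 members at 999 to 1000 bp scored from 3.36 in Cttnbp2nl to 31.99 in Zcchc7, and 6 summits up to 1003 bp away, just outside it, scored from 3.64 in Atp2b4 to 23.7 in Uaca.

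Members scored lower in replicate 2 than shared summits, and moved and added ones differed in what they faced. The median score was 10.8 for displaced and 19.1 for shared summits, which is the 30.1 and the 53.0 percentile of the list. Moved summits had a median percentile of 36.9 and added ones of 20.4. The facing replicate 1 summits had median percentiles of 62.6 for moved, 83.6 for added and 74.5 for shared. Added summits, lowest in replicate 2, thus faced the highest ones, while moved ones were below shared in both lists. Added summits thus stood beside strong replicate 1 summits, and 58.0% of those lay in the upper 20% of the list. An added summit scored below the shared replicate 2 summit next to it in 2433 of 2727 cases (89.2%), with a median ratio of 0.364 (quartiles 0.186 and 0.659). The share of replicate 2 summits that were displaced fell from 27.5% in the lowest score quintile to 6.60% in the highest. For added ones it fell from 10.9 to 0.507%, and for moved ones from 16.5 to 6.10%. The part of the score in the displacement was not tested.

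The highest members were nonetheless strong in both lists. Of 5915 moved summits, 197 (3.33%) had both summits in the upper 10% of their lists. The highest lay inside Slc8a1, the sodium-calcium exchanger of muscle, at chromosome 17 position 81606319 with a score of 144.0, and the replicate 1 summit, at 254.7, lay 131 bp away. Next came one inside Irs1, an adaptor of insulin signalling, at chromosome 1 position 82253302 (141.6), 651 bp from a replicate 1 summit of 220.0. Inside Cpne8, at chromosome 15 position 90497342, scores of 134.4 and 248.1 lay 120 bp apart. A member 91195 bp outside Nrp1, a VEGF co-receptor, at chromosome 8 position 128267396 had 123.2, and replicate 1 had 200.8 at 746 bp. The 10 highest members were all moved, and none lay within 1 kb of a gene end. The highest added one lay inside Chst11, at 79.4 and 902 bp from the facing summit. Next came one between genes, 239417 bp from Lrig3, at 78.3 and 958 bp from a replicate 1 summit of 302.6. The third lay inside Pecam1, an adhesion protein of endothelium, at chromosome 11 position 106660776 (74.0), 991 bp from a replicate 1 summit of 228.3.

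Members lay at the ends of genes more often than shared summits did, moved ones more so than added ones. Within 1 kb of an end of a protein-coding gene lay 2548 displaced summits (29.5%, 28.5 to 30.5%), against 17.2% of shared ones and 17.3% of those with no replicate 1 summit within 1000 bp. The share was 33.3% for moved and 21.2% for added summits. Starts accounted for most of it: 27.1% of displaced, 30.5% of moved, 19.7% of added and 15.3% of shared summits lay within 1 kb of a start, leaving out chromosome 18, for which no starts were at hand. Within 250 bp of a start the order differed, with 22.7% of moved, 12.5% of shared and 4.47% of added summits. Displaced summits exceeded shared ones at gene ends on 20 of 20 chromosomes. Inside genes but away from their ends lay 42.1% of displaced and 44.7% of shared summits, and between genes 28.4 and 38.1%.

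The share at gene ends went up with the score among moved summits, less so among shared ones and not among added ones. From the lowest to the highest score quintile, 18.2, 25.3, 38.0, 51.6 and 53.6% of moved summits lay near a gene end. For added summits these shares were 21.9, 20.5, 20.0, 21.9 and 19.4%, and for shared ones 9.54, 10.5, 16.0, 25.6 and 22.4%. The difference between displaced and shared summits was thus present in each quintile, from 10.1 percentage points in the lowest to 28.5 in the highest. With the roles of the lists exchanged, 24.4% of 11441 displaced replicate 1 summits lay near a gene end (31.8% of moved, 15.8% of added), against 17.2% of shared ones.

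**Figure D2:**
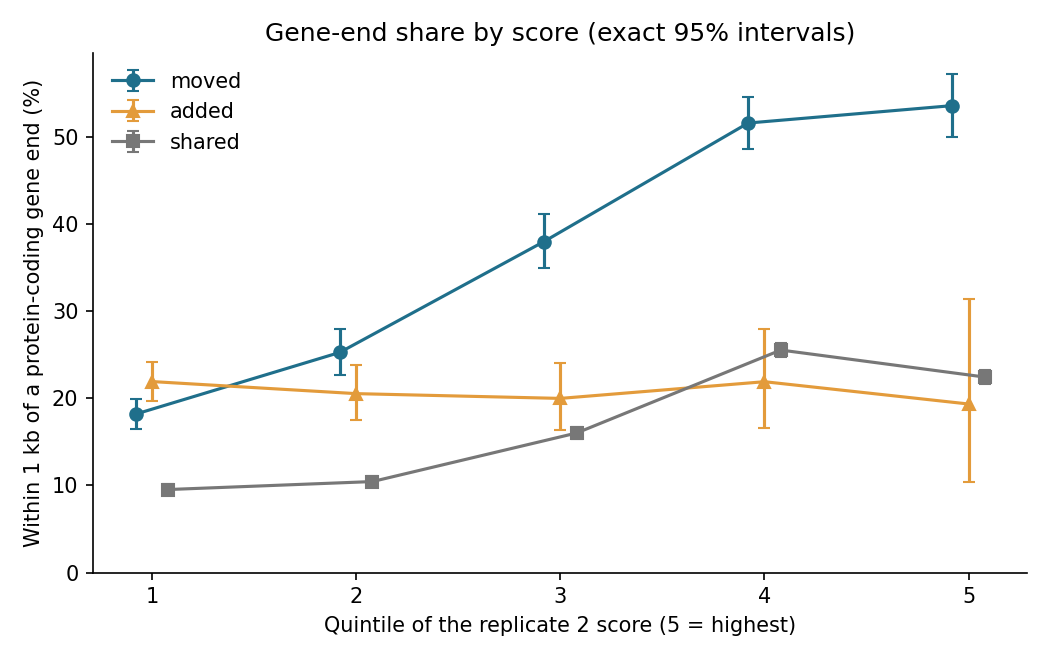
Percent of replicate 2 summits within 1 kb of an end of a protein-coding gene by score quintile of the replicate 2 list, for moved, added and shared summits, with exact 95% intervals. Moved summits reach 53.6% in the highest quintile, while added ones stay between 19.4 and 21.9%, above the moved ones in the lowest quintile.

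At gene starts the displacement had a direction that followed transcription. In 1585 moved pairs, mutual nearest summits within 1 kb of the start nearest their midpoint, the replicate 2 summit lay downstream of the start in 66.4% and the replicate 1 summit in 38.1%. The pair lay on both sides of the start in 890 (56.2%, 53.7 to 58.6%). In 669 of these 890 (75.2%, 72.2 to 78.0%) the replicate 2 summit was downstream and the replicate 1 summit upstream, and in 221 the reverse held. The other pairs were both downstream in 383 and both upstream in 312. The median position was 42 bp in replicate 2 and -66 bp in replicate 1. The rule does not use strand or starts, so this direction is not built into the choice of members.

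The direction was relative to the gene and not to the chromosome. The replicate 2 summit had the higher coordinate in 49.5% of the pairs at starts, and in 49.2% of 2769 moved pairs over 5 kb from any start or end of a protein-coding gene. Among pairs on both sides, replicate 2 was downstream in 73.5% at genes on the plus strand and 76.8% at genes on the minus strand, and in 76.8% where no other start lay within 2 kb. It was the more frequent order on 19 of 19 chromosomes. In the 669 pairs, at 667 genes, the replicate 2 summit lay at a median of 58 bp (quartiles 34 and 89) and the replicate 1 summit at -107 bp (-177 and -74). Shared pairs at starts, which differ by at most 100 bp, had medians of 40 bp in replicate 2 and 32 bp in replicate 1. Among shared pairs 51 to 100 bp apart, 197 had replicate 2 downstream and replicate 1 upstream, and 77 the reverse. Each order rests on 1 library per replicate, so a difference between the lungs, the digestion and the sequencing cannot be told apart.

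**Figure D3:**
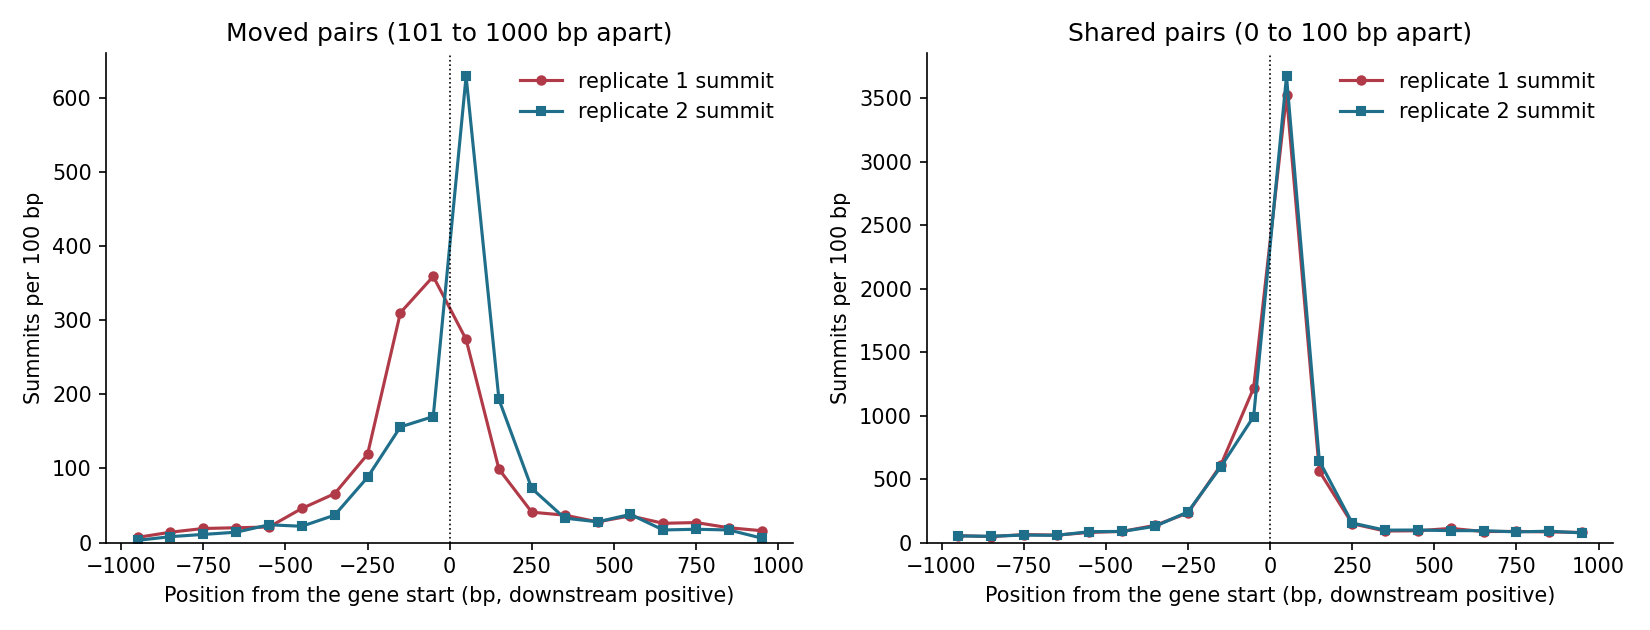
Number of summits by position from the gene start, in 100 bp steps, for the replicate 1 and replicate 2 summits of moved pairs (left) and of shared pairs (right), with each point at the middle of its step. In the 100 bp after the start there are 629 replicate 2 and 274 replicate 1 summits of moved pairs, and in the 100 bp before it 170 and 359.

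The promoters with a moved pair were rich in GC and CpG and held few forkhead cores. Median GC was 62.7% in 1575 windows with a moved pair, 61.7% in 7092 with a shared pair and no moved one, and 56.3% in all 21262. The ratio of observed to expected CpG was 0.807, 0.778 and 0.567. Forkhead cores were searched on both strands. The core TGTTTAC lay in 2.35% of windows with a moved pair (3.01% of all windows), the core TGTTTGC in 2.60% (4.58%) and the core TATTTAC in 1.33% (2.59%). At least 1 of them lay in 98 windows with a moved pair (6.22%), in 7.43% of those with a shared pair and in 9.70% of all. The CCAAT box, the motif of the promoter factor NF-Y, lay in 40.0, 38.0 and 38.2%. Windows with neither kind of pair were lower in GC, at 51.7%, and held a core in 11.4%, so GC content moves with this share and its part was not tested. Selenbp1, shown above, is unlike most, with a CpG ratio of 0.254. In 204 pairs with both summits well inside the window, the 51 bases around the replicate 2 summit had a median GC of 66.7%, and those around the replicate 1 summit 64.7%. A core lay within these bases at 3 replicate 2 and 1 replicate 1 summits. These matches say only whether the letters occur in the window.

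Genes of many functions had a moved pair at their start. Of 17491 protein-coding genes with a start in the table, 1558 (8.91%) did. Among the listed genes, replicate 2 was downstream and replicate 1 upstream at Eng, a TGF-beta co-receptor of endothelium, with the summits at 65 and -56 bp and scores of 44.6 and 65.1. The same order held at Flt1, the VEGF receptor that limits signalling through Kdr (5 and -97 bp), at Hey2, a Notch target (46 and -72 bp), at Gas1, a hedgehog co-receptor (32 and -82 bp) and at Cdk1, the kinase of mitotic entry (12 and -112 bp). It held too at Mcl1, a survival factor (85 and -39 bp), at Fosb, a subunit of AP-1 (25 and -349 bp), at the ribosomal protein gene Rpl23 (85 and -63 bp) and at Hopx, a marker of alveolar type 1 cells (259 and -151 bp). The reverse order was seen at Mthfsd, next to Foxf1 (-136 bp in replicate 2, 52 bp in replicate 1), and at Plk1, a mitotic kinase (-145 and 22 bp). Most of the listed genes with a moved pair at their start had both summits on the same side of it, so the genes named above are the minority. At Pdgfra, a receptor of lung fibroblasts, both summits lay after the start, at 119 and 2 bp, with scores of 45.6 and 96.2. At Foxa2, a forkhead factor of epithelium, both lay before it, at -84 and -221 bp.

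Genes with the most displaced summits also had many summits in all. Assigning each summit to the nearest protein-coding gene end within 100 kb, 4953 of 21883 genes (22.6%) had at least 1 displaced summit. Nfib, a transcription factor of lung maturation, had the most, 13 of its 72 replicate 2 summits (5 moved, 8 added). Irf2bp2, a transcriptional co-repressor, and Tcf4, an E protein, followed with 11 each, of 25 and 47 summits. Kdr, the receptor through which VEGF drives endothelial growth, had 10 of 36. Zeb2, a zinc finger repressor, and the tight junction gene Tjp1 had 9 each, of 28 and 38, with 8 moved at Zeb2 and 6 added at Tjp1. The endothelial surface gene Cd93 had 8 of 26 and Ets1, an ETS factor of vessels, 8 of 44. Among all 50793 assigned summits 14.9% were displaced, which these numbers are to be read against. The order of the genes changed with the settings. With scores of at least 10 in each list Zeb2 had 7, Irf2bp2 5, Tcf4 4 and Nfib and Kdr 3 each, and with a facing summit at most 500 bp away Zfp608 had 7 and Nfib 5. A moved summit had a median of 1 other replicate 2 summit within 10 kb, as did a shared one, and an added summit had 3.

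Kdr shows both arrangements in 1 gene region. It spans 75932827 to 75979072 on chromosome 5 (minus strand), and 7 of its 10 members were moved and 3 added. The highest added summit, at 75921969, had a score of 53.8 and lay 960 bp from a replicate 1 summit of 159.1. The highest moved one, at 76040747 before the gene, had 32.9 and lay 123 bp from a replicate 1 summit of 74.8. At the gene start an added summit of 5.60 at 75979180 lay 639 bp from a replicate 1 summit of 82.5, which was itself shared. The strongest sites in the gene, such as the one scoring 189.7 in replicate 1 and 104.2 in replicate 2, were shared.

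**Figure D4:**
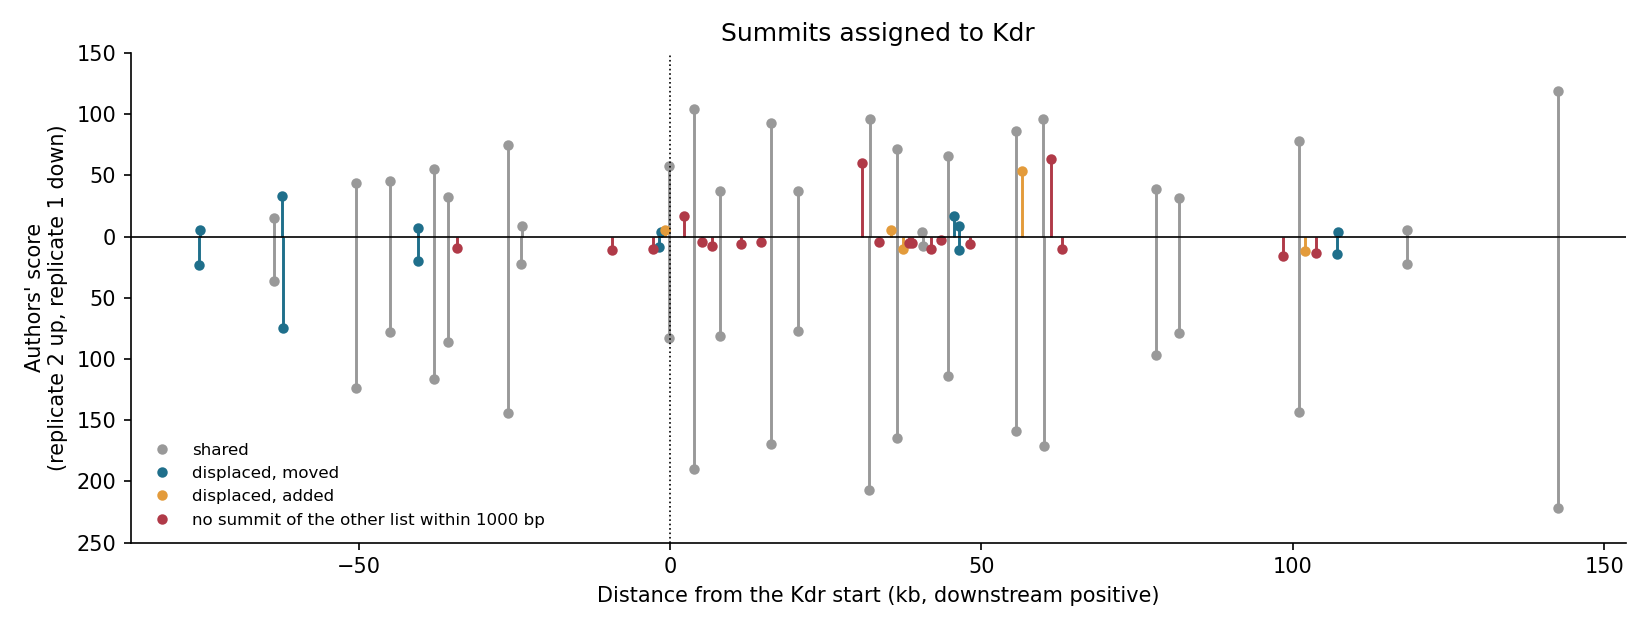
Summits assigned to Kdr by distance from its start in kb along the direction of transcription and by score, with replicate 2 drawn upward and replicate 1 downward. Colours mark shared, moved and added summits and those with no summit of the other list within 1000 bp. The 10 displaced replicate 2 summits lie from -75.5 to 107.2 kb, with none between -0.725 and 35.5 kb. They reach at most a score of 53.8, below the highest shared ones.

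Endothelial and mesenchymal genes had many members, at a share of summits close to that of all genes. Of 30 endothelial genes 22 had a displaced summit, against 22.6% of all genes, but of their 399 summits 71 (17.8%, 14.2 to 21.9%) were displaced, against 14.9%. The list held 35 moved and 36 added ones, led by Kdr, by Fli1, an ETS factor of vessels (7 of 31), by the sphingosine phosphate receptor gene S1pr1 (5 of 31, all added) and by Calcrl, the adrenomedullin receptor (4 of 24). In Erg, another ETS factor, a moved pair of 55.3 and 100.8 lay 137 bp apart. Of 25 mesenchyme and matrix genes 15 had one, and 47 of 251 summits (18.7%) were displaced. These included Meis2 and Meis1, homeobox factors (8 of 26 and 6 of 37), the matrix gene Tgfbi (7 of 21) and Tbx5, a T-box factor of lung mesenchyme (6 of 15). Near Foxp1, a forkhead factor, summits of 49.6 and 81.3 lay 118 bp apart. In smooth muscle and pericyte genes 16 of 108 summits (14.8%) were displaced, with 3 each at Cald1, Flna and Kcnj8.

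Epithelial genes had few summits and a large displaced share, with a wide interval. Of their 79 summits 21 (26.6%, 17.3 to 37.7%) were displaced, against 14.9% of all assigned summits, and 19 of the 21 were moved. They belonged to 10 of 25 genes, where 22.6% of all genes had a displaced summit. The list was led by the forkhead genes Foxa2 (4 of 9) and Foxa1 (3 of 6), by Hopx (3 of 10) and by the surfactant protein gene Sftpb (3 of 7). Whether the epithelial cells or other cells of the lung gave these summits was not tested. By nearest gene end, blood and immune genes had 0 of 14. This allows a share of up to 21.4% by the limit of 3 counts, and the exact interval reaches 23.2%. Counting displaced summits within 5 kb of an end, also those nearer to another gene, 3 of the 20 blood genes had one, against 18.9% of all protein-coding genes. Neuronal genes had 1 of 41 (2.44%, 0.0617 to 12.9%) by nearest end, at Gap43, against 14.9% of all assigned summits.

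The signalling lists lay near the background of 14.9% of summits. VEGF, Notch and Tie genes had 49 of 268 (18.3%), with the receptors Notch1 (5 of 16), Nrp1 (5 of 25) and Tek (4 of 22). BMP and TGF-beta genes had 41 of 261 (15.7%), with the receptors Tgfbr2 (7 of 24), Tgfbr3 (4 of 43) and Acvrl1 (3 of 11) and the target Id3 (4 of 10). Hedgehog and WNT genes had 32 of 208 (15.4%), with the secreted inhibitor Wif1 (4 of 8), the co-receptor Lrp5 (3 of 13), the ligand Wnt5a (3 of 5) and the target Axin2 (2 of 13). Immediate early and stress genes had 31 of 227 (13.7%), with Fos (5 of 11) and Klf6 (3 of 16). Cell cycle genes had 15 of 98 (15.3%), with Ccnd1 (4 of 15), and ribosomal protein genes 3 of 36 (8.33%), at Rpl23, Rpl37 and Rps14. All these intervals were wide, and the interval of each signalling list held 14.9%.

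**Figure D5:**
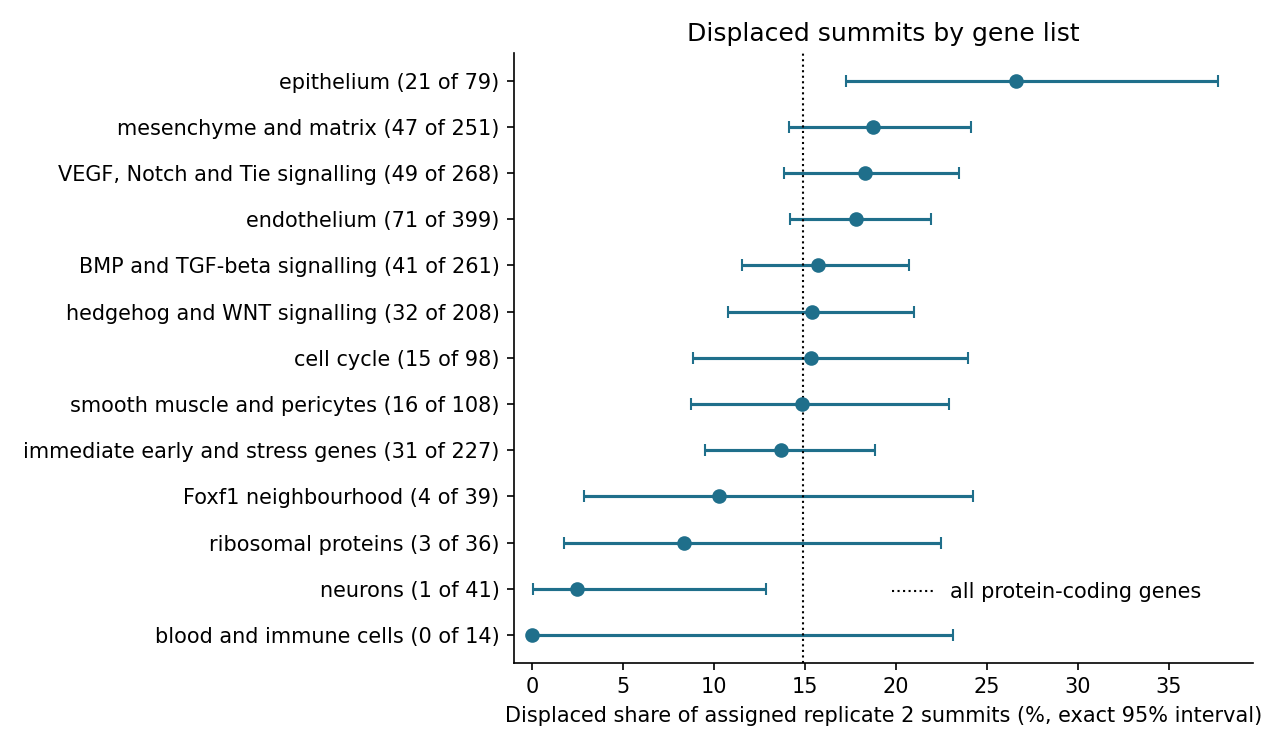
Percent of replicate 2 summits that were displaced, by gene list (13 lists), with exact 95% intervals, with a dotted line at the 14.9% of all assigned summits. The epithelial list is highest at 26.6% and the blood list has 0 of 14 by nearest gene end.

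Around Foxf1 itself 4 of 39 summits of the neighbourhood (10.3%) were displaced. Inside Foxf1, at chromosome 8 position 121087212, a moved summit of 7.92 lay 577 bp from a replicate 1 summit of 16.5. At Mthfsd, position 121108473, scores of 28.3 and 28.8 lay 188 bp apart. Near Foxl1, a neighbouring forkhead gene, an added summit at 121126851 (50.9) lay 704 bp from a replicate 1 summit of 215.2. Foxc2 had 0 of 1 and Irf8 0 of 12.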

How the data were processed

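FOXF1 summits of 2 pooled lung samples were used, with 1 deposited list per replicate. The authors called peaks with MACS2 on mm10, per the submitters' processing notes, and deposited each summit as 1 base with a score that is −log10 of a p or q value. The sources used here do not state which of the 2 it is, nor the aligner, the MACS2 version or the depth. Nuclear summits were compared with Python 3.11.15, numpy 2.4.6, pandas 2.3.3 and scipy 1.17.1, and plotted with matplotlib 3.10.9. The counting was tested on simulated data.

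Each replicate 2 summit was paired with its nearest replicate 1 summit. Genes came from RefSeq on GRCm38.p6 (21883 protein-coding). A summit belonged to the gene with the nearest end within 100 kb. Starts, strands and promoter windows came from a RefSeq table that covers 17491 of these genes (79.9%) and none of chromosome 18. No genome was used, so sequence away from promoters was not read, and exons and introns were not told apart.

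Of 311 listed symbols 310 matched, 2 through an older symbol. Named were the 10 highest members, the 5 highest added ones, the genes with most members, the leading genes and pairs of each list and 6 promoters. The members, the lists and these rules were chosen with earlier results of these data known. The start nearest the midpoint was chosen after the data were seen, as were the analysis of CpG and GC, the classes of strong pairs and the alternatives by quintile, lone start and distance. With 1 group and a rule that needs both replicates, no p-value is given. The alternatives changed the distances, the score minimum, the list length, the roles of the lists and the start.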

Additional observations from a re-analysis of the deposited data

Results flagged for a closer look

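Summits on the mitochondrial genome, which were set aside, numbered 10 in replicate 1 and 6 in replicate 2. They lie outside the nuclear chromosomes compared above, and the level in the input was not analysed here.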

How the results depend on the processing

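Under every alternative run, displaced summits lay near gene ends more often than shared ones, by 6.47 to 28.5 percentage points (12.2 as reported). Only this difference could change sign. The other main values are positive by nature, so they could not reverse. Of the 73 main values under alternatives, 23 were unchanged and 50 moved. With shared set at 50 bp there were 14584 members (median 118 bp, 83.5% moved, 25.6% near a gene end, 8.71 points above shared, percentile 35.4, 44.8% on both sides of the start). At 200 bp there were 4766 (median 558 bp, 38.0% moved, 27.4% near an end, 9.11 points, percentile 25.1, 64.1% on both sides, 70.2% of these with replicate 2 downstream, 3060 genes). With at most 500 bp the values were 145 bp, 89.5% moved, 31.9% near an end, 14.7 points and percentile 32.3. With scores of at least 10 there were 4588 (median 202 bp, 75.5% moved, 37.8% near an end, 18.4 points, percentile 41.6, 59.7% on both sides). With replicate 1 shortened to the length of replicate 2 the values were 397 bp, 58.6% moved, 13.6 points and percentile 32.3. With the roles exchanged they were 487 bp, 54.0% moved, 24.4% near an end, 7.19 points and percentile 34.9. A gene end within 500 bp gave 20.96% and 6.47 points, and within 2 kb 35.8% and 14.6 points. Among alternatives added after seeing the data, the start nearest the replicate 1 summit gave 53.4% on both sides and 71.5% with replicate 2 downstream. Members over 200 bp away gave 42.9% moved, 64.1% on both sides and 70.2% with replicate 2 downstream. Score quintiles 1, 3, 4 and 5 gave 10.1, 16.4, 21.1 and 28.5 points. The cause of these shifts was not tested, beyond the members that each limit adds or drops. Of 439 counts for named genes and lists under alternatives, 281 stayed within 1.5 times the reported count and 158 did not. Leaving out a replicate gives no value, since the rule needs both lists. No paired analysis was possible because the input has no list and the lists form 1 group. Depth is unknown, so its part in the scores and the list lengths was not tested.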

Other observations

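Among genes with at least 8 replicate 2 summits, the largest displaced shares were at Laptm4b and Septin4 (5 of 8 each, 62.5%), Skida1 (8 of 13, 61.5%), Tnrc6b (7 of 12, 58.3%) and Erp27 (5 of 9, 55.6%). At Laptm4b, a lysosomal membrane protein gene, and Septin4, a cytoskeletal GTPase gene, all 5 were moved. These are counts from single genes, and such shares vary widely by counting alone.

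A few moved pairs had very unequal ranks. In 16 of 5915 the replicate 2 summit was in the upper 20% of its list and the replicate 1 summit in the lower 20%, and in 51 the reverse held. The clearest listed case lay in Lyve1, a hyaluronan receptor of lymphatic endothelium, at chromosome 7 position 110860314, where the replicate 2 summit scored 97.3 and the facing replicate 1 summit, 906 bp away, 5.07.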
